A study of Mus musculus with 9 samples.

Results

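The 9 genes described here mark midbrain dopamine neurons: Th, Ddc, Slc18a2, Slc6a3, Chrna6, Chrnb3, Nr4a2, En1 and Foxa2. They were picked by symbol with the difference between the CVST+Ligation and CVST groups already known, and all 9 were found among the 20731 genes of the count table. All 9 were also among the 14746 genes kept for testing, but Slc18a2, Slc6a3, Chrna6, En1 and Foxa2 were near 0 in the CVST group and passed the filter on low counts through the ligated groups, where they were high. Values that set the CVST group against a ligated group are therefore given as a description with no test, and a test is given only between the 4-PBA and CVST+Ligation groups, which still shares the CVST+Ligation libraries with the choice of genes.

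Brain RNA from 9 male C57BL/6J mice aged 8 to 10 weeks was sequenced on day 2 after surgery, with 3 mice in each of 3 groups, to ask how blocked lymphatic drainage alters the brain after cerebral venous sinus thrombosis (CVST). Every mouse, those of the CVST group included, had a thrombosis of the superior sagittal sinus induced with ferric chloride. The CVST+Ligation and 4-PBA groups also had the deep cervical lymph nodes ligated, and the 4-PBA group alone received intraperitoneal 4-phenylbutyric acid, an inhibitor of endoplasmic reticulum stress. The methods place the 4-PBA injection before modelling and the description of the data set places it after ligation, and no mice without thrombosis or with ligation alone were analysed here. The methods give control mice solvent in place of 4-PBA, without saying which groups of the sequencing set this covers. The labels give the tissue as brain with no region, and the description of the data set names cortical tissue. A library held 18100739 to 25091498 counted reads, so that 3 counts, taken as the floor for detection, correspond to 0.114 to 0.163 CPM, the library's counts rescaled to a common depth. All CPM values use TMM scaling, and floors cover counting error only. The labels give each library a number within its group and say nothing more of its origin, so p-values measure the spread between these libraries.

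Dopamine neurons make dopamine from tyrosine in a pair of steps. Tyrosine hydroxylase (Th) produces L-DOPA and aromatic L-amino acid decarboxylase (Ddc) converts it to dopamine, after which the vesicular monoamine transporter (Slc18a2) loads it into vesicles and the dopamine transporter (Slc6a3) takes it back from the synapse. In the midbrain these cells lie in the substantia nigra and ventral tegmental area, carry nicotinic receptors that contain the subunits encoded by Chrna6 and Chrnb3, and depend on the transcription factors Nr4a2, En1 and Foxa2. Slc6a3 is the most restricted of the 4 dopamine handling genes, while Ddc and Slc18a2 are shared with serotonin and noradrenaline neurons, Th is shared with noradrenaline neurons and some other cells, and Nr4a2 is also made in cortical neurons and switched on by neuronal activity. In RNA from whole tissue, fewer cells of a type and less RNA per cell cannot be told apart.

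The members lie on 7 chromosomes, in GRCm38 coordinates of the GENCODE M21 annotation. Th lies at chr7:142892752-142931128 on the minus strand, Ddc at chr11:11814101-11898144 on the minus strand, Slc18a2 at chr19:59260896-59296012 on the plus strand and Slc6a3 at chr13:73536747-73578672 on the plus strand. Chrna6 at chr8:27403212-27413944 and Chrnb3 at chr8:27368711-27399730 are neighbours on opposite strands with 3481 bases between them. Nr4a2 lies at chr2:57106830-57124003, Foxa2 at chr2:148042877-148046969, both on the minus strand, and En1 at chr1:120602418-120607992 on the plus strand. Ddc overlaps the antisense gene 1700042O10Rik with 0 exonic bases in common, and Slc18a2 overlaps the antisense gene Gm29261 over 111 exonic bases. Neither antisense gene is listed in the count table and the strand setting of the counting is not given in the sources used here, so reads from Gm29261 cannot be told apart from those of Slc18a2.

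The promoters of the 4 dopamine handling genes are shown because these genes were high together in the ligated libraries. They come from the RefSeq table of GRCm38.p6, which held 10 promoters for 7 of the 9 members, without entries for Chrna6 and Chrnb3. Each is printed 5′ to 3′ on the strand of its gene, from 250 bases before the start of transcription up to that start, with 4 further bases for Slc18a2 to complete a motif. The windows are chr7:142899996-142900245 (minus strand) for Th, chr11:11898145-11898394 (minus strand) for the distal start of Ddc, chr11:11890409-11890658 (minus strand) for a second start of Ddc, chr13:73536497-73536746 (plus strand) for Slc6a3 and chr19:59260628-59260881 (plus strand) for Slc18a2. RefSeq and GENCODE place the start of Slc18a2 18 bases apart, and the RefSeq start of Th lies 19 bases from that of the GENCODE transcript Th-201 and inside the span given above, which begins 31.1 kb further upstream. Capitals mark a cAMP response element (TGACGTCA, the same on both strands) in Th and Slc18a2, and the Nr4a2 response element (AAAGGTCA) in Ddc, where it is read on the opposite strand.
Th: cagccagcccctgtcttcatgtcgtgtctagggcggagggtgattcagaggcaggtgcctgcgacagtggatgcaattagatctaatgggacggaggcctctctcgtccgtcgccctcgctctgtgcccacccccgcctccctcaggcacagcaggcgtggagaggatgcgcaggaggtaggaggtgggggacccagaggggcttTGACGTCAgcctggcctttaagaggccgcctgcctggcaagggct
Ddc distal: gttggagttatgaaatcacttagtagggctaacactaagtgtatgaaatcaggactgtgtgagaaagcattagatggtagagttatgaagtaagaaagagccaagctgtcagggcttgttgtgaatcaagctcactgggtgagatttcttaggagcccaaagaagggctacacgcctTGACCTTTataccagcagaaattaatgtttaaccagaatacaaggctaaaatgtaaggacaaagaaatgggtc
Ddc second: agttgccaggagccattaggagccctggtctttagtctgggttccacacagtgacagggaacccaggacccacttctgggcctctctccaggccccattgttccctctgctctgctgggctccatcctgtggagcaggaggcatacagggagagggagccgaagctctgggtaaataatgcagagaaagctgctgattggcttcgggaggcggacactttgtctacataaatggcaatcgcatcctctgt
Slc6a3: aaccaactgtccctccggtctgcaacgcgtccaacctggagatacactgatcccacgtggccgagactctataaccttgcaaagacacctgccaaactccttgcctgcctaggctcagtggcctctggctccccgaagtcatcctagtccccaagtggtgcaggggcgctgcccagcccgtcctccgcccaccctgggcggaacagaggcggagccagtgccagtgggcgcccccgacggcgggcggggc
Slc18a2: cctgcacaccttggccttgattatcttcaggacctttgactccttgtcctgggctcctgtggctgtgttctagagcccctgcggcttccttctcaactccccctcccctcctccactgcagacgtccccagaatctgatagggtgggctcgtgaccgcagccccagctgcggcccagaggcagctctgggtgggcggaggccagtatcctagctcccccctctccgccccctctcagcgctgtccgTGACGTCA

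Counting the first transcribed base as 0, the cAMP response element spans positions -45 to -38 in Th and -4 to 3 in Slc18a2, and the Nr4a2 response element spans -73 to -66 before the distal start of Ddc. On both strands, TGACGTCA occurred in 1.79% and AAAGGTCA in 1.51% of the 32851 promoters of the table, each taken over 250 bases before and 50 bases after the start. The motifs were chosen after the expression values were seen. A forkhead motif (TGTTTAC, in 3.65% of all promoters) and a homeodomain motif (TAATTA, in 5.29%) occurred in 0 of the members' 10 promoters. These matches describe letters in a window and no binding was measured.

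Compared to the CVST group, 7 of the 9 members were higher in all 3 CVST+Ligation libraries than in any CVST library, against 6.61% of all genes tested. The same 7 were higher in all 3 4-PBA libraries than in any of these CVST libraries, against 12.3% of all genes tested. The 7 were Th, Ddc, Slc18a2, Slc6a3, Chrna6, En1 and Foxa2, and the values that define this count are those that chose the members, so nothing is read from it. Chrnb3 and Nr4a2 overlapped between the groups. The mean level was 4.07-fold higher for Th, 9.77-fold for Ddc, 25.6-fold for Chrna6, 50.6-fold for Slc18a2 and 219-fold for Slc6a3, the last resting on 10, 0 and 2 counts in the CVST group.

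**Figure D1:**
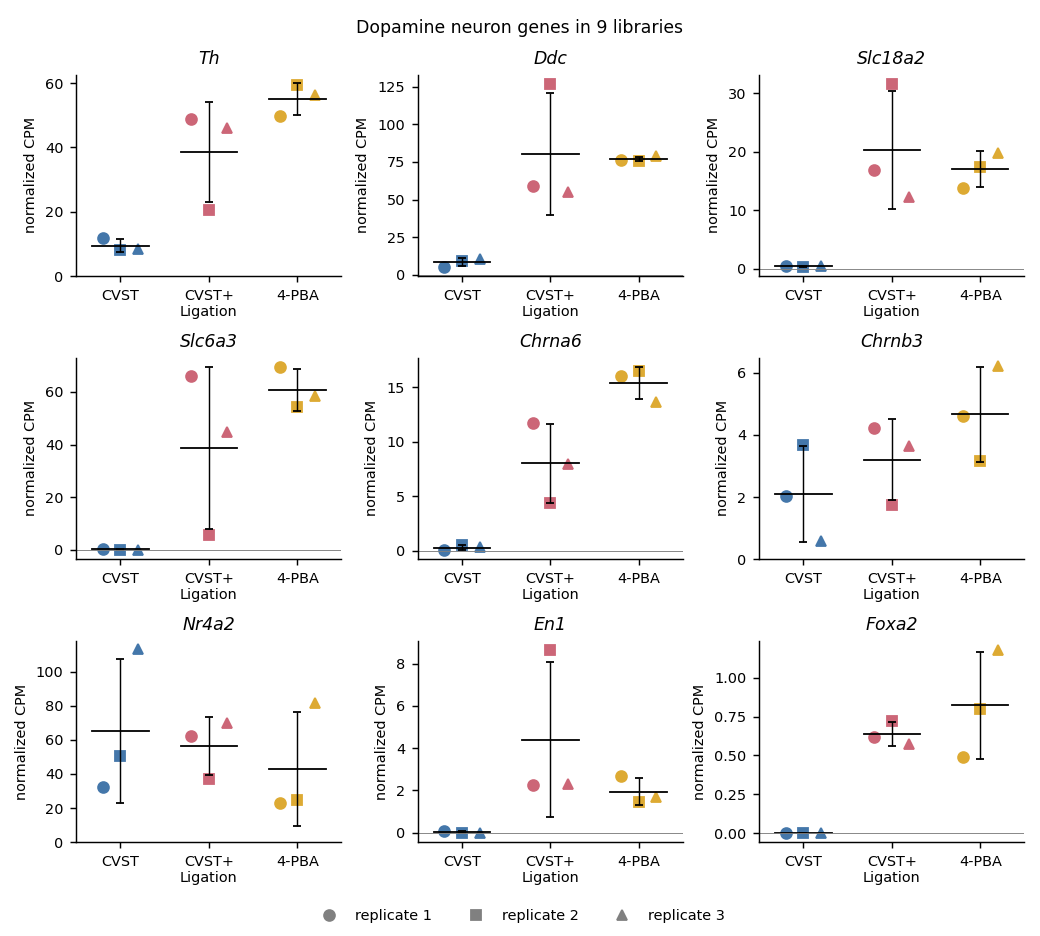
Each panel plots one member in normalized CPM, with a point for each library (marker shape gives the replicate number), a line at the group mean and an error bar of 1 SD over 3 libraries. Slc6a3 lies between 0 and 0.425 CPM in the CVST group and between 5.62 and 69.5 CPM in the ligated groups, whereas Nr4a2 and Chrnb3 overlap across all groups.

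Th, which encodes the rate-limiting enzyme of dopamine synthesis, was counted at 11.7, 8.16 and 8.52 CPM in the CVST libraries. It stood at 49.0, 20.6 and 46.0 CPM in CVST+Ligation replicates 1, 2 and 3, and at 49.7, 59.4 and 56.2 CPM in the 4-PBA libraries. Th was thus measurable in every brain, the ligated libraries were all higher, and CVST+Ligation replicate 2 was the lowest of them. The log2 fold change against the CVST group was 2.02 (SE 0.31) for CVST+Ligation and 2.54 (SE 0.31) for 4-PBA, both against the same CVST libraries.

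Ddc, the second enzyme of the pathway, was at 5.18, 9.36 and 10.2 CPM in the CVST libraries. It reached 59.3, 127 and 55.0 CPM after ligation and 76.3, 75.8 and 78.7 CPM after ligation with 4-PBA. Replicate 2 of the CVST+Ligation group, which was lowest of the ligated libraries for Th, was the highest of all 9 for Ddc. The 4-PBA libraries averaged 77.0 ± 1.56 CPM (SD, n = 3), whereas the CVST+Ligation libraries averaged 80.5 ± 40.5 CPM (SD, n = 3). Its log2 fold change was 3.29 (SE 0.37) for CVST+Ligation and 3.22 (SE 0.37) for 4-PBA against CVST.

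Slc18a2, which fills synaptic vesicles with monoamines, had 12, 7 and 7 counts in the CVST libraries, which is 0.51, 0.31 and 0.38 CPM. The CVST+Ligation libraries held 407, 614 and 279 counts (16.8, 31.6 and 12.3 CPM) and the 4-PBA libraries 254, 413 and 519 counts (13.8, 17.4 and 19.8 CPM). In the CVST group the gene was above the floor by a few counts only, and replicate 2 was again the highest CVST+Ligation library. On the log2 scale the fold change was 5.63 (SE 0.44) for CVST+Ligation and 5.38 (SE 0.43) for 4-PBA.

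Slc6a3, the dopamine transporter gene, had 10, 0 and 2 counts in the CVST libraries, which is 0.425, 0 and 0.108 CPM. The CVST+Ligation libraries held 1603, 109 and 1018 counts (66.2, 5.62 and 44.7 CPM) and the 4-PBA libraries 1282, 1294 and 1529 counts (69.5, 54.4 and 58.3 CPM). A count of 0 in CVST replicate 2 allows up to 0.133 CPM. Replicate 2 of the CVST+Ligation group stood well below the other 5 ligated libraries and still above every CVST library. Fold changes on the log2 scale were 7.68 (SE 1.06) for CVST+Ligation and 8.32 (SE 1.08) for 4-PBA, with wide errors because of the few counts in the CVST group. Without CVST replicate 1, which held 10 of its 12 counts there, they were 9.47 and 10.12, and with any 1 library left out they ranged from 7.05 to 9.47 and from 7.74 to 10.12.

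The neighbouring receptor genes Chrna6 and Chrnb3 followed different patterns. Chrna6, the alpha6 nicotinic subunit concentrated in dopamine neurons, was at 0.085, 0.532 and 0.325 CPM in the CVST libraries, at 11.7, 4.43 and 7.96 CPM in the CVST+Ligation libraries and at 16.0, 16.5 and 13.7 CPM in the 4-PBA libraries. Its log2 fold change against CVST was 4.67 (SE 0.54) for CVST+Ligation and 5.60 (SE 0.55) for 4-PBA, and 5.33 and 6.28 without CVST replicate 2. Chrnb3, the beta3 subunit that assembles with alpha6, was at 2.04, 3.68 and 0.597 CPM in the CVST libraries, at 4.22, 1.75 and 3.65 CPM in the CVST+Ligation libraries and at 4.61, 3.16 and 6.21 CPM in the 4-PBA libraries. The 3 groups overlapped for Chrnb3, and its log2 fold changes of 0.60 (SE 0.58) and 1.14 (SE 0.58) had intervals from -0.71 to 1.91 and from -0.18 to 2.45. They were 0.15 and 0.69 without CVST replicate 3 and 1.27 and 1.82 without CVST replicate 2. In the CVST group Chrnb3 was present at 2.11 ± 1.54 CPM (SD, n = 3) where Chrna6 was at 0.314 ± 0.224 CPM (SD, n = 3).

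The 3 transcription factor genes each behaved differently. Nr4a2, the orphan nuclear receptor Nurr1, was at 32.3, 50.6 and 113 CPM in the CVST libraries, at 62.0, 37.3 and 69.7 CPM in the CVST+Ligation libraries and at 23.0, 24.8 and 81.6 CPM in the 4-PBA libraries. The groups overlapped fully, and replicate 3 was the highest library of each group. The log2 fold change of Nr4a2 was -0.21 (SE 0.56) for CVST+Ligation and -0.59 (SE 0.57) for 4-PBA against CVST, and both turned positive without CVST replicate 3, at 0.42 and 0.05.

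En1, a homeobox gene of the midbrain and anterior hindbrain, had 2, 0 and 0 counts in the CVST libraries against 55, 168 and 52 in the CVST+Ligation libraries and 49, 34 and 45 in the 4-PBA libraries. In CPM this was at most 0.085 in the CVST group, 2.27, 8.66 and 2.29 in the CVST+Ligation group and 2.66, 1.43 and 1.71 in the 4-PBA group. The ratio of summed counts, scaled by library size, was 134 for CVST+Ligation over CVST (95% counting interval 36.7 to 1109.5) and 60.3 for 4-PBA over CVST (16.4 to 503). Without CVST+Ligation replicate 2 the first ratio was 73.5 (19.9 to 615), and without CVST replicate 1, which held both CVST counts, En1 was at least 29.8-fold higher for CVST+Ligation and at least 13.1-fold higher for 4-PBA. The ratios were 87.0 and 39.2 without CVST replicate 2, and 95.5 and 43.1 without CVST replicate 3. Foxa2, a forkhead factor of the midbrain floor, had 0 counts in all 3 CVST libraries. It had 15, 14 and 13 counts in the CVST+Ligation libraries and 9, 19 and 31 in the 4-PBA libraries, which is 0.638 ± 0.0766 and 0.823 ± 0.347 CPM (SD, n = 3 each). Against a floor of 3 counts per library, 0.141 CPM on average, Foxa2 was at least 4.52-fold higher in the CVST+Ligation group and at least 5.83-fold higher in the 4-PBA group. En1 was therefore highest in the same CVST+Ligation library as Ddc and Slc18a2, while Foxa2 was even across that group.

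CVST+Ligation replicate 2 stood apart from the other ligated libraries in the proportions of the members, measured as ratios of FPKM within a library so that gene length and depth cancel. The ratio of Slc6a3 to Th was 0.752 to 1.15 in the other 5 ligated libraries and 0.224 in replicate 2. The ratio of Ddc to Th was 1.27 to 1.63 in the 5 and 6.55 in replicate 2, and that of Slc18a2 to Slc6a3 was 0.237 to 0.406 in the 5 and 6.74 in replicate 2. En1 to Slc6a3 went from between 0.0406 and 0.0789 to 2.38. Some pairs kept their proportion in all 6, with Slc18a2 to Ddc at 0.167 to 0.263 in the 5 and 0.231 in replicate 2, and Chrna6 to Th at 0.178 to 0.331 in the 5 and 0.222 in replicate 2. Among the 6 ligated libraries, replicate 2 was thus the lowest for Th, Slc6a3, Chrna6 and Chrnb3 and the highest for Ddc, Slc18a2 and En1.

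**Figure D2:**
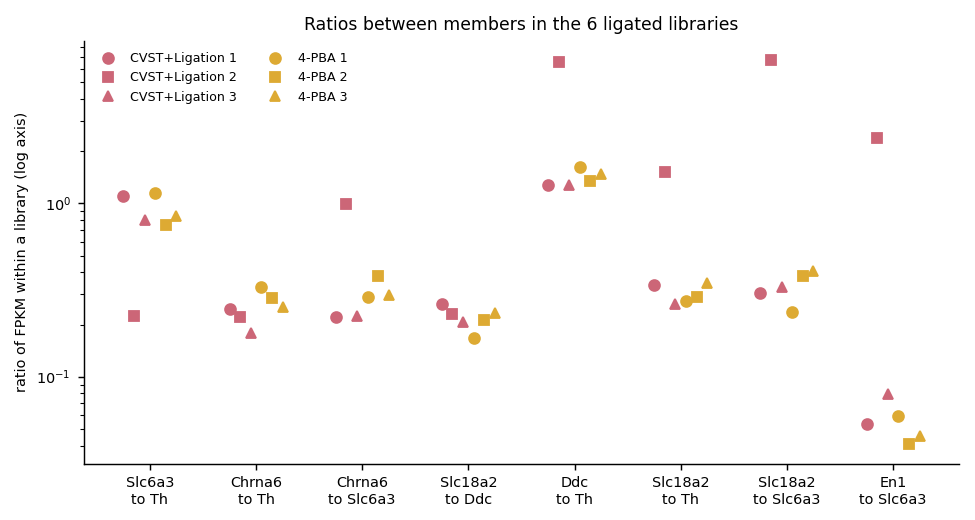
Ratios of FPKM between pairs of members within each of the 6 ligated libraries, on a log axis, with red for CVST+Ligation and yellow for 4-PBA and the marker shape giving the replicate. The red square, CVST+Ligation replicate 2, lies apart for Slc6a3 to Th (0.224), Ddc to Th (6.55) and Slc18a2 to Slc6a3 (6.74) and among the others for Slc18a2 to Ddc (0.231).

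Several markers of other monoamine neurons were high in that library. Of 6 serotonin neuron markers, which are Tph2, Slc6a4, Fev, Gata2, Gata3 and Htr1a, the summed level was 270 CPM in CVST+Ligation replicate 2. It was 18.2 to 20.3 CPM in the other CVST+Ligation libraries, 9.93 to 16.8 CPM in the 4-PBA group and 5.91 to 9.66 CPM in the CVST group. Tph2, the serotonin-synthesizing enzyme of the brain, was at 136 CPM there and at most 1.98 CPM elsewhere, and Slc6a4, the serotonin transporter, was at 102 CPM there and at 0 in the other CVST+Ligation libraries. Htr1a, a serotonin receptor also made by other neurons, was level across that group, at 11.9, 11.9 and 10.1 CPM. Of 4 noradrenaline neuron markers, Dbh, Slc6a2 and Phox2a among them, the sum was 14.5 CPM there and at most 2.21 CPM elsewhere, with Phox2a at 0 in that library. Pitx3, a dopamine neuron factor named here after its values were seen, had 0 counts in replicate 2, which allows up to 0.155 CPM, and was at 0.951 and 0.22 CPM in CVST+Ligation replicates 1 and 3. The part of serotonin and noradrenaline neurons in the values of Ddc, Slc18a2, Th and En1 was not tested. Without this library, the log2 fold change of CVST+Ligation against CVST was 2.32 for Th, 2.79 for Ddc, 5.16 for Slc18a2, 8.19 for Slc6a3 and 4.96 for Chrna6.

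Summed markers of brain regions are given as a description, with no test of the sums. The sums of the other midbrain, cortical, thalamic and olfactory lists did not overlap between the CVST group and either ligated group. The hypothalamic sums overlapped between CVST and CVST+Ligation, the striatal sums between CVST and 4-PBA, and the cerebellar sums between CVST and both ligated groups. Of 9 markers of other midbrain neurons (Pax7, Pou4f1, Barhl1, Tfap2b, Lhx1, Lhx5, Gata3, Sox14 and Nkx6-1) the summed level was 0.212 to 0.325 CPM in the CVST libraries, 8.92 to 61.2 CPM in the CVST+Ligation libraries and 9.75 to 13.8 CPM in the 4-PBA libraries. The 61.2 CPM was CVST+Ligation replicate 2, and replicates 1 and 3 were at 11.1 and 8.92 CPM. In replicate 2, Barhl1 was at 11.0 CPM and Gata3 at 10.7 CPM. Barhl1 is also on the cerebellar list and Gata3 on the serotonin list, so these sums are not separate. Over all libraries, 9 cortical excitatory neuron markers summed to 1981.1 to 2468.0 CPM in the CVST group, 576 to 1827.9 CPM in the CVST+Ligation group and 683 to 1017.0 CPM in the 4-PBA group. The 576 CPM was again CVST+Ligation replicate 2, and replicates 1 and 3 were at 1827.9 and 1820.1 CPM. The 8 striatal neuron markers summed to 402 to 1085.9, 131 to 199 and 118 to 539 CPM, and the 7 thalamic markers to 62.8 to 114, 244 to 686 and 450 to 761 CPM, in the same order of groups. Thus the CVST libraries, in which Slc6a3, En1 and Foxa2 were at or near 0, held almost none of the other midbrain markers either, with Lhx5, Pax7 and Barhl1 at 0 in all 3. The 8 hypothalamic markers summed to 5.19 to 42.1 CPM in the CVST group, 5.46 to 56.6 CPM in the CVST+Ligation group and 297 to 579 CPM in the 4-PBA group, and the 8 cerebellar markers to 134 to 208, 205 to 1357.1 and 139 to 249 CPM, with the highest value in CVST+Ligation replicate 2. Outside that library most of the cerebellar sum came from Calb1, which is also on the list of dopamine neuron identity genes. Calb1 was at 104 to 178 CPM in the CVST group and 76.1 to 201 CPM in the 4-PBA group. Gabra6, another cerebellar marker, was at 0 in all libraries of both these groups. The 6 markers of the olfactory bulb, where some periglomerular cells also use Th, summed to 12.8 to 56.1, 113 to 401 and 131 to 200 CPM, mostly from Calb2, which the thalamic list also holds. Among the other olfactory markers, Cdhr1 was at 1.91 to 3.36 CPM in the CVST libraries and 4.54 to 8.67 CPM in the ligated ones, Eomes was at 9.28 CPM in CVST+Ligation replicate 2 and at most 0.744 CPM elsewhere, and Tbx21 was at 0 to 0.38 CPM. Doc2g and Sp8 had lower means in the CVST+Ligation than in the CVST group (1.97 against 2.78 CPM and 0.42 against 0.58 CPM) and did not pass an unadjusted p of 0.05. The part of the brain regions held in each sample in the levels of the members was not tested.

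**Figure D3:**
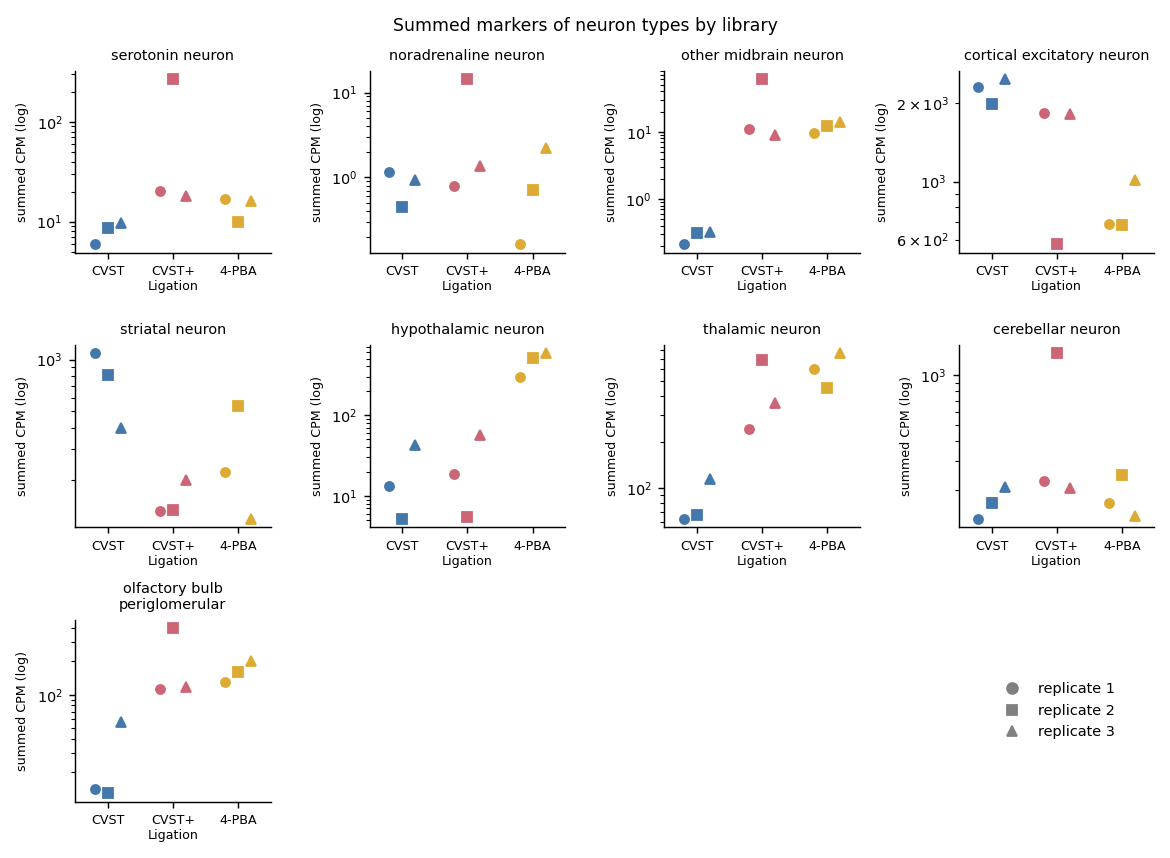
Each panel plots the summed CPM of a marker list in each of the 9 libraries on a log axis, by group, with the marker shape giving the replicate number. Other midbrain neuron markers lie between 0.212 and 0.325 CPM in the CVST group and between 8.92 and 61.2 CPM in the ligated groups, and the serotonin sum of CVST+Ligation replicate 2 stands at 270 CPM.

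Between the 4-PBA and CVST+Ligation groups, both of which were ligated, 0 of the 9 members passed an adjusted p below 0.05 in edgeR's quasi-likelihood test, adjusted by Benjamini-Hochberg (all adjusted p = 1), and of all genes tested 0% passed. At an unadjusted p below 0.05, 0 of 9 members passed, against 3.23% of all genes tested, and 1 of 9 (Chrna6) passed with DESeq2, against 3.87% of all genes with that tool. The smallest p belonged to Chrna6, which was at 15.4 ± 1.48 CPM in the 4-PBA group and 8.04 ± 3.65 CPM in the CVST+Ligation group (SD, n = 3 each), a log2 fold change of 0.93. Its 95% interval ran from -0.01 to 1.88 in edgeR's fit, and with any 1 library left out the value was 0.66 to 1.33. All 3 libraries of the 4-PBA group were above all 3 of the CVST+Ligation group for Chrna6 and for Th, 2 of 9 members against 3.51% of all genes tested. Th had a log2 fold change of 0.52, with an interval from -0.15 to 1.18, and was at 0.23 without CVST+Ligation replicate 2. With 3 libraries against 3, an exact permutation test of a single gene cannot go below p = 0.1.

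For the other members the intervals leave differences in both directions possible. Ddc had a log2 fold change of -0.07 (interval -0.81 to 0.68) and Slc18a2 of -0.25 (-0.99 to 0.49), and both directions depended on CVST+Ligation replicate 2, without which they were 0.44 and 0.24. Slc6a3 had 0.64 (-0.91 to 2.20) and was at 0.14 without that library, 1.28 without CVST+Ligation replicate 1, 1.17 with the replicate number as a block and 1.15 and 1.26 with limma. The value of En1 was -1.19 (-2.63 to 0.25) and shrank to -0.23 without it. Chrnb3 had 0.54 (-0.75 to 1.82), Nr4a2 -0.38 (-1.65 to 0.88) and Foxa2 0.38 (-0.84 to 1.60). With any 1 library left out Chrnb3 was at 0.26 to 0.80 and Foxa2 at 0.02 to 0.65. Without 4-PBA replicate 3 the value of Nr4a2 was -1.24, past an unadjusted p of 0.05 with an adjusted p of 1 in edgeR's test. It was -0.06 without 4-PBA replicate 1 and -0.11 without 4-PBA replicate 2. The median over the 9 members was 0.38, and over all genes tested -0.02.

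**Figure D4:**
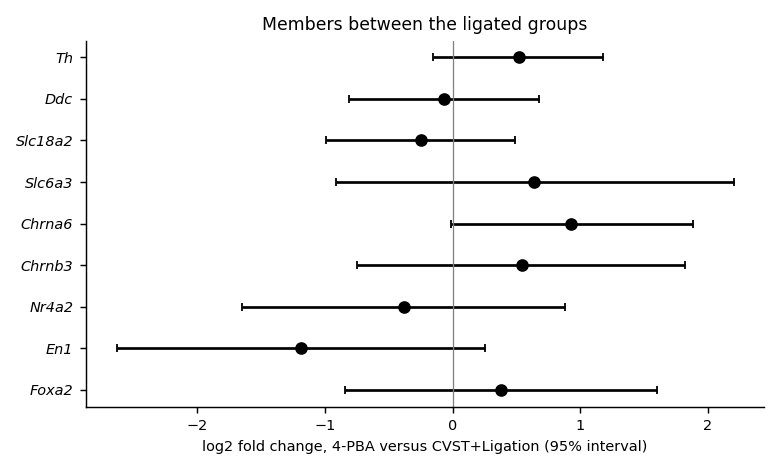
The log2 fold change of each member in the 4-PBA group against the CVST+Ligation group (point) with its 95% interval (bar) from edgeR's fit. Every interval includes 0, with the lower end for Chrna6 at -0.01, and the widest reach from -0.91 to 2.20 for Slc6a3 and from -2.63 to 0.25 for En1.

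Levels of different members can be compared roughly per length, as FPKM. The lengths behind these values ran from 1203 bases for En1 to 1857 for Slc6a3. Of all recovered lengths 74.8% were multiples of 3, as lengths of coding sequence are. If reads outside the coding sequence were also counted, which the sources do not say, the order between genes could shift. In the CVST group Nr4a2 was highest at 35.2 ± 22.0 FPKM (SD, n = 3), above Th at 6.05 ± 1.25 and Ddc at 5.58 ± 1.80 FPKM, which overlapped. Chrnb3 followed at 1.39 ± 1.04 FPKM, and Slc18a2, Chrna6, Slc6a3, En1 and Foxa2 each lay at or under 0.359 FPKM in every CVST library, with overlapping ranges between neighbours in that order. In the 4-PBA group the order was Ddc at 54.7 ± 2.20, Th at 37.0 ± 3.29, Slc6a3 at 33.5 ± 4.36, Nr4a2 at 24.8 ± 19.7, Slc18a2 at 11.2 ± 2.14, Chrna6 at 10.6 ± 0.823, Chrnb3 at 3.21 ± 1.11, En1 at 1.65 ± 0.544 and Foxa2 at 0.606 ± 0.266 FPKM. There the ranges of neighbours separated between Ddc and Th, between Chrna6 and Chrnb3 and between En1 and Foxa2, and the other neighbours overlapped. In the CVST+Ligation group Foxa2 was separated from the next gene and every other pair of neighbours overlapped. The order of the group means was therefore led by Nr4a2 in the CVST group and by Ddc in both ligated groups. Only in the 4-PBA group was Ddc above Nr4a2 in every library, at 52.9 FPKM or more against 47.6 or less. In CVST+Ligation replicate 3 Nr4a2 still led, at 37.8 FPKM against 37.2 for Ddc.

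Taking 9 libraries, the Pearson r of each member with the mean of the other 8 members was 0.977 for Foxa2, 0.956 for Chrna6, 0.949 for Slc18a2, 0.94 for Slc6a3, 0.925 for Th, 0.918 for Ddc and 0.861 for En1, and lower for Chrnb3 (0.561) and Nr4a2 (-0.253). The points are 3 CVST and 6 ligated libraries that fall into separate clusters for most members, so r is used only to rank likeness. Among the 10 non-member genes most like the mean of the 9 members were Htr4 (r = 0.957), Mettl14 (0.953), Shox2 (0.952), Tcf7l2 (0.949), F2r (0.948), Rnf128 (0.932), Ctxn3 (0.929), Dop1a (0.928) and Nccrp1 (0.926). Shox2 and Nccrp1 had 0 counts in every CVST library and reached 9.30 and 1.18 CPM in ligated libraries, and Tcf7l2 went from 1.90 to 3.36 CPM in the CVST group to 23.5 to 91.3 CPM in the ligated groups. For Mettl14 and Dop1a the like pattern covered a small change, with Mettl14 at 24.4 to 25.9 CPM in the CVST group and 27.8 to 30.0 CPM in the ligated groups.

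Of 21 further genes of dopamine neuron identity, none of them a member, 11 were higher and 2 lower in the CVST+Ligation group than in the CVST group at an unadjusted p below 0.05, against 5.47% higher and 4.18% lower of all genes tested. This list and the dopamine and nicotinic lists below were also chosen with earlier results of these data known. Their counts are therefore a description and no independent support for the members. Of the 11, Lmx1a and Pitx3 had 0 counts and Lmx1b and Foxa1 2 counts each in the CVST group, so these 4 passed the filter on low counts through the ligated groups. Among the 16 genes of the list with at least 10 counts in every library, 7 were higher and 2 lower, against 5.15% and 4.34% of all genes under that filter. None of the 21 passed an adjusted p below 0.05 in edgeR's quasi-likelihood test, adjusted by Benjamini-Hochberg, and 3 of all genes tested (0.0203%) did. The median log2 fold change of the list was 1.31, also with the 2 genes at 0 in the CVST group put at their bound, and that of all genes 0.00. Lmx1a, a factor that specifies these neurons, had 0 counts in the CVST group and 33 in the CVST+Ligation group (at least 3.58-fold higher), its relative Lmx1b had 2 and 70 counts (ratio 34.0, counting interval 9.08 to 287, 17.2 without CVST+Ligation replicate 2, which held 45 of the 70, 21.6 without CVST replicate 1, and at least 7.77-fold without CVST replicate 2, which held both CVST counts), and Aldh1a1, a retinaldehyde dehydrogenase of nigral neurons, had a log2 fold change of 1.83 (SE 0.40) with an adjusted p of 0.273 in edgeR's test. The genes past the threshold in the lower direction were Drd2, the D2 receptor, which striatal neurons also make, and Vip, a neuropeptide also found in cortical interneurons. Without CVST+Ligation replicate 2, 9 were higher and 2 lower, against 4.65% and 3.42% of all genes. Without CVST replicate 2, 8 were higher and 1 lower, against 5.05% and 3.48%. With only the 2 groups compared, 18 of the listed genes were tested and 8 were higher, against 4.31%. Against CVST the 4-PBA group had 12 of the 21 higher and 1 lower, against 8.07% and 7.33% of all genes, with the same CVST libraries as controls, and with at least 10 counts in every library 8 of 16 were higher and 1 lower, against 7.68% and 7.5%. The gene lower with 4-PBA was Vip, with a log2 fold change of -1.78 (SE 0.25) and an adjusted p of 0.041 in edgeR's test, a level that 0.122% of all genes reached.

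Between the ligated groups, 2 of the 21 were higher in the 4-PBA group (Lmx1a and Otx2) and 2 lower (En2 and Vip) at an unadjusted p below 0.05, against 1.81% higher and 1.42% lower of all genes. Each had an adjusted p of 1 in edgeR's test, and with any 1 library left out 1 to 3 were higher and 1 to 2 lower. Otx2, a midbrain homeobox gene, had a log2 fold change of 1.38 (SE 0.46) and Vip of -0.93 (SE 0.25). En2, the relative of En1, was at 23.7 CPM in CVST+Ligation replicate 2 and at 0.868 and 1.54 CPM in the other libraries of that group, so that its log2 fold change of -2.69 (SE 1.11) rested on 1 library. It shared this peak with En1 itself.

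**Figure D5:**
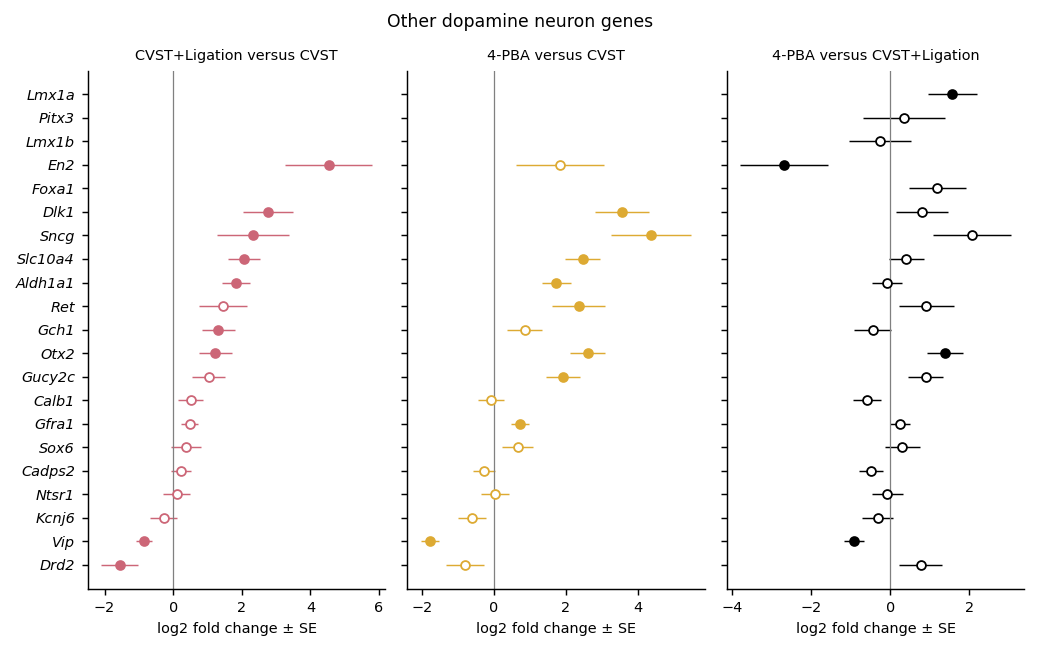
The log2 fold change with its SE of 21 dopamine neuron genes that are not members, in the 3 comparisons, with filled points for an unadjusted edgeR p below 0.05 and open points for the others. Genes with at most 3 counts over the CVST group (Lmx1a, Pitx3, Lmx1b and Foxa1) are left out of the panels against CVST, and most of the other points there lie above 0, with Kcnj6, Drd2 and Vip below it in both.

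Of 12 genes of dopamine's cofactor supply and breakdown, 10 were tested, and 2 were higher (Pcbd1 and Dbh) and 1 lower in the CVST+Ligation group at an unadjusted p below 0.05, against 5.47% higher and 4.18% lower of all genes tested. Pcbd1, which recycles the cofactor of Th, had a log2 fold change of 1.26 (SE 0.41) and Dbh, which turns dopamine into noradrenaline, of 3.32 (SE 1.43), with 10.6 CPM in replicate 2 and at most 0.372 CPM in the other libraries of that group. Their adjusted p was 0.394 to 0.508 in edgeR's quasi-likelihood test, adjusted by Benjamini-Hochberg, and without replicate 2 none passed the unadjusted threshold. The count of 2 higher was also 0 without CVST replicate 1, 3 without CVST+Ligation replicate 3 and 4 without CVST+Ligation replicate 1. Between the ligated groups 1 of 10 was higher with 4-PBA and 0 lower at that threshold, against 1.81% and 1.42% of all genes, and without replicate 2 there were 4 of 11 higher and 0 lower, against 5.37% and 4.64%. The number higher was 0 without CVST+Ligation replicate 3, 4-PBA replicate 2 or 4-PBA replicate 3, and 2 without CVST replicate 3. The monoamine oxidases did not pass, with Maoa at 0.14 (SE 0.14) and Maob at 0.54 (SE 0.31) for CVST+Ligation against CVST.

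Of 14 dopamine receptor and striatal target genes, 0 were higher and 11 lower in the CVST+Ligation group than in the CVST group at an unadjusted p below 0.05, against 4.18% lower of all genes tested, with a median log2 fold change of -1.61. The 3 that did not pass were Drd4 at -0.68, Gnal at -0.79 and Drd5, a receptor of the D1 class, at 1.04. Ppp1r1b (DARPP-32, the dopamine-regulated phosphatase inhibitor) had a log2 fold change of -2.32 (SE 0.53), Rgs9 of -2.55 (SE 0.60) and Adora2a, the adenosine receptor of striatal neurons, of -3.66 (SE 1.09). The adjusted p of these was 0.283 to 0.349 in edgeR's quasi-likelihood test, adjusted by Benjamini-Hochberg. Without CVST replicate 1, 6 of 14 were lower, against 3.5% of all genes, and without CVST+Ligation replicate 2, 8 of 14, against 3.42%. Several of these genes also serve in the striatal marker list, whose sums are given above. In the 4-PBA group against CVST, 4 of 14 were lower and 0 higher, against 7.33% lower of all genes. That count was 0 without CVST replicate 1 or without 4-PBA replicate 1, 1 without 4-PBA replicate 3 and 7 without 4-PBA replicate 2. Between the ligated groups 2 of 14, Drd3 and Tac1, were higher with 4-PBA at an unadjusted p below 0.05, against 1.81% of all genes, with log2 fold changes of 2.98 (SE 0.87, 4 and 34 summed counts) and 1.29 (SE 0.49). Both had an adjusted p of 1 in edgeR's test, and the count of 2 became 1 to 6 with a library left out, with 6 without 4-PBA replicate 3, 4 without CVST+Ligation replicate 3 and 1 without CVST+Ligation replicate 1 or 4-PBA replicate 2.

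Among 11 other nicotinic receptor subunit genes, 9 were tested, and 3 were higher (Chrna3, Chrnb4 and Chrna4) and 0 lower in the CVST+Ligation group at an unadjusted p below 0.05, against 5.47% and 4.18% of all genes, with adjusted p of 0.283 to 0.456 in edgeR's quasi-likelihood test, adjusted by Benjamini-Hochberg. Chrna4, which joins alpha6 in receptors of dopamine neurons, had a log2 fold change of 0.62 (SE 0.24), beside 4.67 for Chrna6. Chrna3 and Chrnb4, subunits abundant in the medial habenula, had a log2 fold change of 2.29 (SE 0.53) and a ratio of summed counts of 18.5 (counting interval 6.01 to 92.2, from 3 counts in the CVST group). Chrnb4 thus passed the filter on low counts through the ligated groups, and 2 genes were higher apart from it. Of its 57 counts in the CVST+Ligation group 47 came from replicate 2, and without that library its ratio was 4.58 (counting interval 1.18 to 25.9). With a CVST library left out it was 12.0 (replicate 2) to 39.6 (replicate 3). Without CVST+Ligation replicate 2, 1 of the 9 was higher, against 4.65% of all genes. Between the ligated groups, edgeR's test called 0 of the 9 at an unadjusted p below 0.05, and 2 were higher and 1 lower without that replicate, against 5.37% and 4.64% of all genes. Without 4-PBA replicate 3, 1 was lower.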

How the data were processed

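Brain RNA of 9 mice in 3 groups was sequenced, and samples were grouped by their titles. Per the labels and the methods, the authors trimmed reads with fastp, aligned them with HISAT2, assembled transcripts with StringTie and quantified with RSEM, and the submitters' notes name the builds mm10 and GRCm38. Versions, annotation and read counter are not given in the sources used here. The authors deposited whole-number counts per gene symbol, without normalization. They also deposited a table of FPKM values, which the methods call TPM. Dividing counts by FPKM returned 1 whole-number length for each of 17446 genes (largest relative error 3.2e-14).

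The count table went into edgeR 4.0.16 (R 4.3.3): TMM scaling, filterByExpr by group (14746 genes), and a quasi-likelihood model of the 3 groups with Benjamini-Hochberg adjustment over all genes tested. Folds are ratios of mean CPM, log2 fold changes come from the fit, and intervals are 95%. No pair of replicates differed by less than sampling noise (chi-square per degree of freedom at least 24.2). The fit was tested on simulated data. The members, gene lists and marker lists were chosen with earlier results of these data known. Besides the members, the named genes are the 3 with the smallest p of each list in CVST+Ligation versus CVST and in 4-PBA versus CVST+Ligation, and the 10 genes with the highest Pearson r of log2(CPM + 0.1) with the mean z-score of the members. Some genes under this rule are not reported here. Marker genes and any other genes were named after their values were seen. Promoter windows came from RefSeq, and positions from GENCODE M21. Alternatives were RLE scaling or total counts, DESeq2 1.42.0, other filters on low counts, a model of only the groups compared, the replicate block, limma 3.58.1 on log2(FPKM + 1) or log2(FPKM + 0.1), and leaving out 1 library at a time. Counts of the lists, and ratios of genes with at most 3 CVST counts, with a library left out were added after seeing the data. Plots were drawn with matplotlib 3.10.9.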

Additional observations from a re-analysis of the deposited data

How the results depend on the processing

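Members past an unadjusted p below 0.05 between the ligated groups numbered 0 in the edgeR fit with all libraries and 1 with total counts, DESeq2, all genes with at least 1 count, only the 2 groups compared, or limma on log2(FPKM + 1) or log2(FPKM + 0.1), each time Chrna6 (adjusted p 0.998 to 1). With each library left out the number was 0 to 2, with 2 without CVST+Ligation replicate 1 (Chrna6 and Th) and 1 without CVST replicate 1 or 2 (Chrna6) or 4-PBA replicate 3 (Nr4a2, -1.24). Over all genes it was 476, and 256 (without 4-PBA replicate 2) to 1497 (without CVST+Ligation replicate 2). Directions turned for Nr4a2 against CVST (with a library left out, CVST+Ligation -0.54 to 0.42, above 0 without CVST replicate 3 or, at 0.01, CVST+Ligation replicate 2, and 4-PBA -1.45 to 0.05, above 0 without CVST replicate 3) and, between the ligated groups, for Ddc (0.03 with the replicate block, 0.07 and 0.08 with limma, -0.28 to 0.44 with a library left out) and Slc18a2 (-0.51 to 0.24), both above 0 only without CVST+Ligation replicate 2 among the leave-one-out fits. The causes were not tested. Between libraries that share a replicate number, deviations from the group means correlated at -0.064 to 0.34. Libraries with different numbers were not compared in this way, so whether the numbers pair the samples was not settled. With the replicate number as a block 0 members passed. Requiring 10 counts in every library kept 4 of the 9 members. Genes at an adjusted p below 0.05 numbered 3, 0 and 18 for CVST+Ligation versus CVST, 4-PBA versus CVST+Ligation and 4-PBA versus CVST, against 264, 22 and 855 with DESeq2, 3, 0 and 112 with all genes of at least 1 count, 0, 0 and 6 with 10 counts in every library, 1, 0 and 234 with only the groups compared, 1, 1 and 25 with the block, 3, 2 and 87 with limma on log2(FPKM + 1) and 13, 0 and 134 on log2(FPKM + 0.1). With each library left out they numbered 0 to 7, 0 to 2 and 2 to 541, the last with 541 without CVST+Ligation replicate 2, 162 without CVST replicate 3 and 2 without CVST replicate 1 or 4-PBA replicate 1. Few counts in the CVST group limit the folds of Slc18a2, Slc6a3, Chrna6, En1 and Foxa2. For CVST+Ligation versus CVST, limma on log2(FPKM + 1) gave 3.39, 3.83, 2.34, 2.01 and 0.54 for these in place of 5.63, 7.68, 4.67, 6.92 and 6.83, and 5.13, 6.35, 4.20, 4.69 and 2.48 on log2(FPKM + 0.1), since a pseudocount shrinks the folds of low genes. For 4-PBA versus CVST, log2(FPKM + 1) gave 3.27, 4.98, 3.27, 1.35 and 0.67.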
